A study of Rattus norvegicus with 18 samples.

Results

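The response described here is that of rat primary hepatocytes to CDMB and CDEB, 2 compounds treated as 1 group. Their 6 arrays, 3 of each compound and all on 1 slide, are part of a series of 18 arrays, and they were set against the 3 arrays of the DMSO control VC_1. The labels give the compounds as codes only, and the series title places them among p-dialkoxy chlorobenzenes and asks how they act. Each array was hybridised with Cy3-labelled RNA from cultures of cryopreserved hepatocytes of male Sprague Dawley rats. After 24 h of preculture, cultures received CDMB at 300 µM, CDEB at 300 µM, the related compound DDMB at 300 µM (3 arrays, used below for comparison) or DMSO, each for 24 h. The design text speaks of independent experiments, but nothing in the labels says that the cells came from more than 1 animal. The p-values below therefore cover only the spread seen among these cultures, which may be technical.

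Hepatocytes carry out most of the liver's fuel, drug and plasma protein metabolism, and much of it is set by nuclear receptors. PPARalpha binds fatty acids and many xenobiotics and switches on fatty acid oxidation in peroxisomes and mitochondria, with the Cyp4a fatty acid hydroxylases among its most responsive targets in the rat. CAR and PXR govern drug-metabolising enzymes, and chaperones of the endoplasmic reticulum, the compartment where secreted proteins fold, are raised when folding falls behind.

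Levels are log2 signal relative to the 75th percentile of the array, so that 0 marks a probe at that percentile, and they are not compared between genes. The hepatocyte identity of the cultures was checked on 8 markers, among them Alb, Ttr and Hnf4a, and all 8 lay above background on all 9 arrays. Of markers of other liver cells, 5 of 7 for stellate cells, 2 of 6 for Kupffer cells, 1 of 5 for sinusoidal endothelium, 2 of 5 for bile duct cells, 1 of 5 for lymphocytes and 1 of 3 for red cells did so, while Krt19, Stab2, Lyve1, Cd163 and Ptprc did so on none. The summed level of the bile duct markers was 3.09 to 3.25 on the CDMB and CDEB arrays, against 3.41 to 5.20 on the VC_1 arrays, and its part in the results was not tested. Of these markers Epcam averaged 1.53 on the CDMB and CDEB arrays and 1.91 on the VC_1 arrays. Sox9 (-2.07 and -2.09) and Krt7 (-4.84 and -4.93) were not lower, so the lower sum rests on Epcam alone.

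Before the results, 3 facts on the arrays bear on all of them. CDMB and CDEB lay on 1 slide and VC_1 and DDMB on another, so slide and compound cannot be told apart. The signal of 1 spike-in control as a percentage of a brighter one was 1.23% to 1.32% with CDMB and 1.21% to 1.28% with CDEB, against 1.98% to 2.04% in VC_1. On the log2 scale used for genes, CDMB and CDEB differed from VC_1 by -0.61 for the first and 0.07 for the brighter. Several other spike-ins differed by -0.46 to -0.35, also with no overlap of arrays, and the range over all was -0.61 to 0.26. The part of these shifts in the results was not tested. As a measure of how far DMSO cultures on different slides can lie apart, 4252 of 20801 genes (20.4%) differed between VC_2, a DMSO group on another slide and another lot of chips, and VC_1 at an adjusted p below 0.05 in limma. That count is from a fit of all 18 arrays, in which 39 genes differed for CDMB and CDEB against VC_1.

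VC_1 replicate 3 stood apart from its group. Its root mean square distance per gene was 0.397 to 0.468 log2 units from the other VC_1 arrays, which lay 0.211 from each other, and 0.498 to 0.550 from the CDMB and CDEB arrays. The 6 CDMB and CDEB arrays lay 0.253 to 0.293 from VC_1 replicates 1 and 2, and 0.214 to 0.293 from each other. Results are therefore given with and without VC_1 replicate 3.

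As 1 group, CDMB and CDEB changed 108 of 20801 genes (0.519%) against VC_1 at an adjusted p below 0.05 in limma, 77 higher (0.37%) and 31 lower (0.149%). The changes were small, with a median of 1.41-fold and a range of 1.21-fold to 2.99-fold, and 4 of the 108 reached 2-fold. Without VC_1 replicate 3, 7 genes passed (0.0337%), all of them among the 108, with 5 higher (0.024%) and 2 lower (0.00961%). For all 108 the 6 treated arrays lay on one side of the 3 VC_1 arrays. Leaving out 1 array therefore could not change their direction, and without VC_1 replicate 3 their adjusted p was up to 0.0779. At an unadjusted p below 0.05, 5331 genes (25.6%) differed with all 9 arrays and 3599 (17.3%) without VC_1 replicate 3, when 9.11% were higher and 8.2% lower. The 6 treated arrays all lay on one side of the 3 VC_1 arrays for 3243 genes (15.6%).

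The count depended on how the signal was processed and on single arrays. With normexp background correction of the median spot signal and an offset of 50, 0 genes passed (4655 at an unadjusted p below 0.05). Such an offset by itself draws the log2 changes of dim probes toward 0. A smaller normexp change of a dim gene below therefore does not decide whether the gene changed less. With slide as a random block 0 passed (176 at an unadjusted p below 0.05). Leaving out VC_1 replicate 1 gave 1385 genes, leaving out VC_1 replicate 2 gave 0 genes (5027 at an unadjusted p below 0.05), and leaving out any 1 of the CDMB or CDEB arrays gave 1 or 2. None of the 108 passed in all 9 of these fits, and 1, the transcript XR_354923 without a gene symbol, passed in 8 of them. It averaged -1.36 with CDMB and CDEB and -1.97 in VC_1, a rise of 0.61 ± 0.05 (log2 ± SE, adjusted p = 0.00599 in limma).

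**Figure D1:**
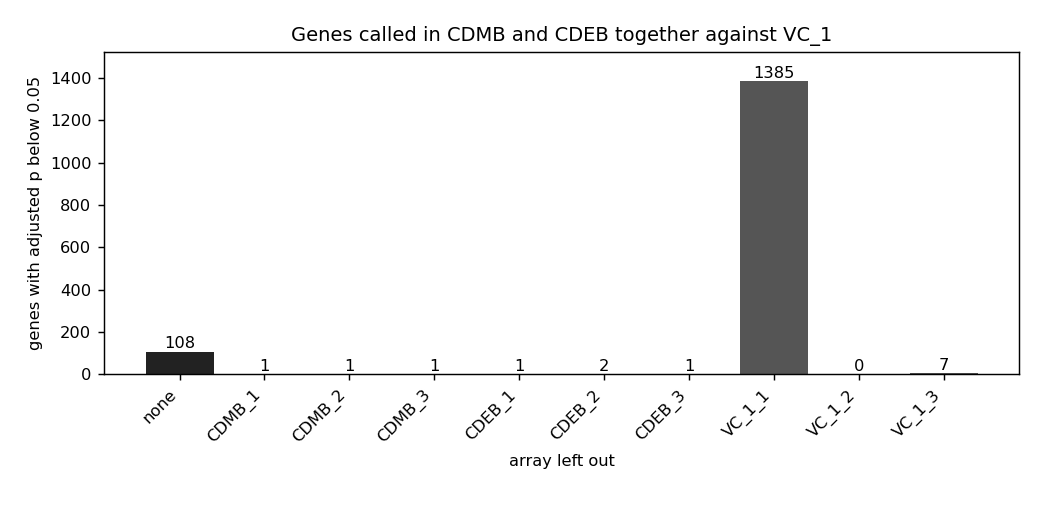
Number of genes with an adjusted p below 0.05 in limma for CDMB and CDEB together against VC_1 (vertical axis), with all 9 arrays (none left out) and with each array left out in turn (horizontal axis). The count was 108 with all arrays, 1385 without VC_1 replicate 1 and between 0 and 7 without any other array.

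Among the 38 changed genes with a plain symbol, 24 rose and 14 fell. The neurofilament light chain gene Nefl, a cytoskeletal gene best known from neurons, had the largest change. Its level was -4.36, -4.11 and -4.26 with CDMB and -3.46, -3.52 and -3.53 with CDEB, against -2.66, -2.38 and -1.85 in VC_1. All treated arrays lay below all control arrays, and the fall of 1.58 ± 0.26 on the log2 scale (2.99-fold) had an adjusted p of 0.0448 in limma. Without VC_1 replicate 3 the change was -1.35 (adjusted p = 0.074 in limma), and with normexp it was -0.58 (adjusted p = 0.135 in limma). Its partner Nefm, the medium chain, was above background on 4 of 6 treated arrays and did not pass (adjusted p = 0.099), with a change of -1.20 that was -0.20 with normexp.

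Npw, which encodes the signalling peptide neuropeptide W, was the only gene with a plain symbol that passed both with and without VC_1 replicate 3. Its level was -1.64, -1.59 and -1.76 with CDMB and -1.75, -1.72 and -1.77 with CDEB, against -1.09, -0.92 and -1.27 in VC_1. The treated arrays lay close together and below each control array. The change was -0.61 ± 0.08 (adjusted p = 0.033 in limma) and -0.70 without VC_1 replicate 3 (adjusted p = 0.0488 in limma). With normexp it was -0.38 and did not pass (adjusted p = 0.107 in limma).

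Other genes that fell were Lamb2 (-0.74 ± 0.13), a laminin chain of basement membranes, Phlda3 (-0.51 ± 0.09), Uap1l1 (-0.50), Pla1a (-0.50), a phosphatidylserine phospholipase, and Irak3 (-0.50), a brake on Toll-like receptor signalling. Fcgr2al1 (-0.49, but 0.0705 with normexp), the amino acid exchanger gene Slc7a6 (-0.39), Abhd11-as1 (-0.38), Lrrc42 (-0.35), Fam229b (-0.35), Det1 (-0.34) and the copine gene Cpne3 (-0.33) completed the falls with a plain symbol. With normexp Lamb2 was -0.29, Slc7a6 -0.19 and Det1 -0.18 (adjusted p = 0.224, 0.210 and 0.215 in limma). Uap1l1 (-0.54), Irak3 (-0.53), Abhd11-as1 (-0.40) and Lrrc42 (-0.39) fell slightly more with normexp. Irak3 was at 3.39, 3.47 and 3.34 with CDMB and 3.43, 3.44 and 3.35 with CDEB, against 3.74, 3.87 and 4.10 in VC_1, with VC_1 replicate 3 the highest. Of the changed transcripts without a symbol, XM_006226448 lay above background on none of the 6 treated arrays and on all 3 VC_1 arrays, and was at least 1.96-fold lower.

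The 2 largest rises with a plain symbol were of genes not above background on every VC_1 array. Milr1, an inhibitory immune receptor known from mast cells in mice, was at -4.08, -4.33 and -4.43 with CDMB and -4.23, -4.49 and -4.23 with CDEB, against -5.39, -4.95 and -4.94 in VC_1. It lay above background on 2 of 3 VC_1 arrays and on all treated ones, so its fitted rise of 0.80 ± 0.12 (adjusted p = 0.0388 in limma) rests on a control value not fully measured, and it was 0.47 with normexp (adjusted p = 0.132). Hhip, which binds and restrains hedgehog ligands, was above background on 1 of 3 VC_1 arrays, and its fitted rise of 0.69 ± 0.11 was 0.41 with normexp (adjusted p = 0.182). Ly6al (0.65), Apeg3 (0.62), Atxn1 (0.61), the potassium channel gene Kcnma1 (0.54), the fibronectin receptor gene Itga5 (0.54) and Kalrn (0.50) followed.

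Genes of metabolism were among the rises of brighter probes. Pfkl, the liver phosphofructokinase that commits sugar to glycolysis, was at 1.87, 1.88 and 2.19 with CDMB and 2.02, 2.07 and 2.08 with CDEB, against 1.49, 1.53 and 1.17 in VC_1. Its groups did not overlap, and it rose 1.54-fold (0.62 ± 0.10, adjusted p = 0.0439 in limma). Hsd17b7, a reductase of cholesterol synthesis (0.51 ± 0.08), Aadat, an aminotransferase of lysine and kynurenine breakdown (0.46), Fam210b (0.47) and Etfdh, which passes electrons from fatty acid oxidation to the respiratory chain (0.31 ± 0.05), rose too. So did Rn7sl1, an RNA of the signal recognition particle (0.45), Emc1, a subunit of the endoplasmic reticulum membrane complex (0.44), Scfd2 (0.41) and Txndc5, a protein disulfide isomerase (0.39 ± 0.05). Without VC_1 replicate 3 these rises were 0.51 for Pfkl, 0.43 for Hsd17b7, 0.27 for Etfdh and 0.36 for Txndc5, with adjusted p between 0.0572 and 0.0667.

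**Figure D2:**
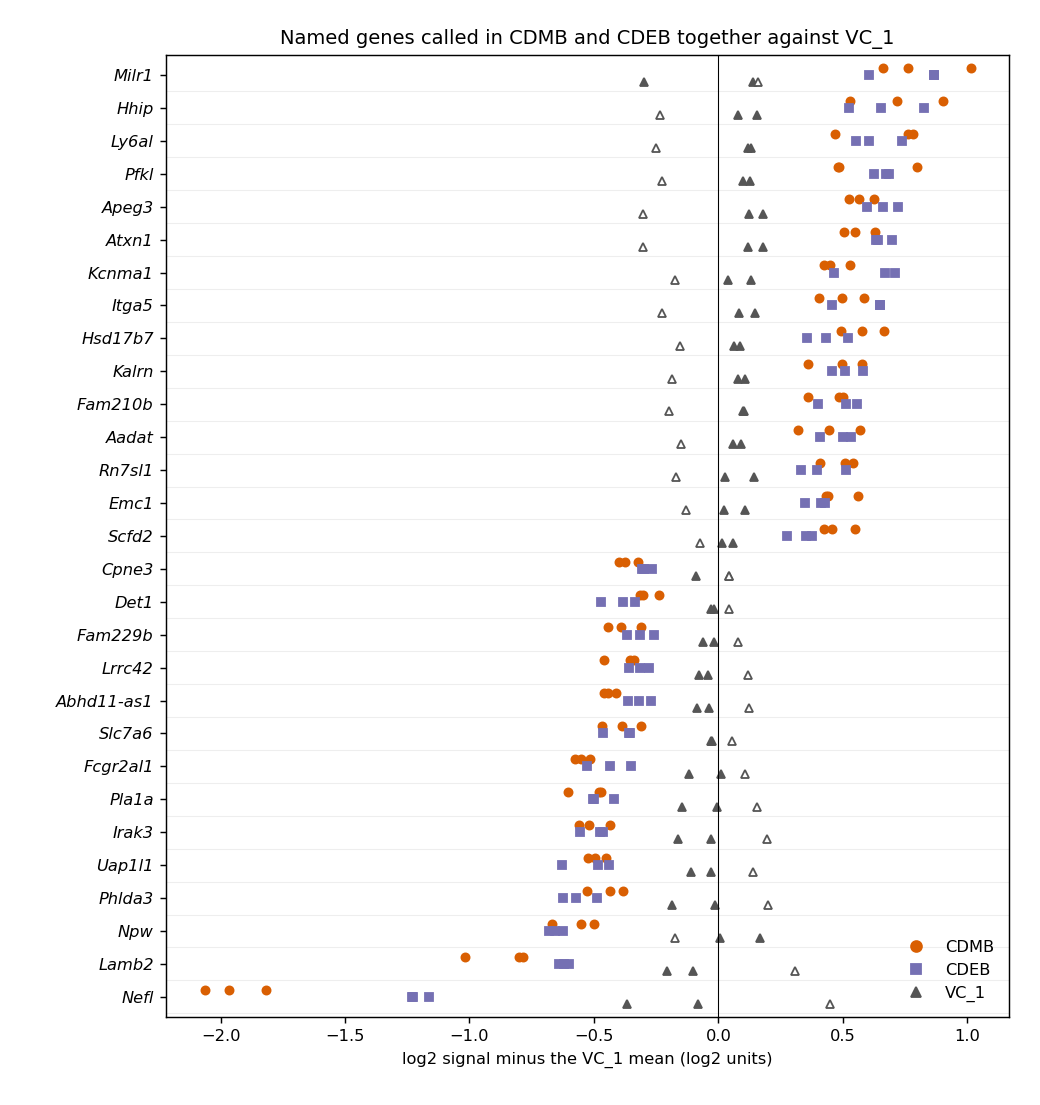
Log2 signal of the 15 largest rises and the 14 falls with a plain symbol, as the difference from the VC_1 mean of each gene (horizontal axis, log2 units), for every CDMB (circles), CDEB (squares) and VC_1 array (triangles, replicate 3 hollow). The 6 treated arrays lie on one side of the 3 VC_1 arrays for each gene, and Nefl reaches about the same level in the 3 arrays of a compound but a lower one with CDMB than with CDEB.

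Gene lists are described by counts and medians, beside all genes tested, whose median change was 0.01 (log2). At an unadjusted p below 0.05, 13.7% of all genes were higher and 11.9% lower. Where treated and control arrays did not overlap, 8.48% of all genes were higher and 7.12% lower. Of all genes, 9.11% were higher and 8.2% lower at that level without VC_1 replicate 3, and each list's counts without that array follow those with it.

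The 3 lists of PPARalpha targets had positive medians and no member lower at an unadjusted p below 0.05. Of 19 peroxisomal genes tested, 13 were higher at that level and 0 were called in limma, with a median of 0.25 (0.16 without VC_1 replicate 3, when 12 were higher). Of 25 genes of mitochondrial oxidation and ketone body synthesis, Etfdh was called and 13 were higher at an unadjusted p below 0.05 (median 0.19), and 10 without VC_1 replicate 3 (median 0.14). Of 30 genes of lipid uptake, storage and fuel switch, 0 were called and 10 were higher at that level (median 0.17), but 4 without VC_1 replicate 3 (median 0.10).

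Peroxisomal members with low p included Crat, carnitine acetyltransferase (0.25 ± 0.05, adjusted p = 0.0539), Cat, the hydrogen peroxide degrading catalase (0.34 ± 0.07, adjusted p = 0.064), and Eci2, an isomerase of unsaturated fatty acids (0.22 ± 0.06), none of which passed in limma. Crat was at 4.64, 4.60 and 4.69 with CDMB and 4.72, 4.73 and 4.69 with CDEB, against 4.46, 4.41 and 4.40 in VC_1, where replicate 3 did not stand apart. Cpt1a, the gate of mitochondrial fatty acid entry, had a change of 0.27 ± 0.10 (adjusted p = 0.146). Plin5, a coat protein of lipid droplets, had 0.65 ± 0.15 (adjusted p = 0.0701) and 0.40 without VC_1 replicate 3. Pdk4, which turns off glucose oxidation and is a PPARalpha target, had 0.03 ± 0.11.

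Cyp4a1 differed between the compounds, and over both compounds its change was 0.46 ± 0.19 (adjusted p = 0.168). Cyp4a3 had 0.43 ± 0.13 and Cyp4a2 0.70 ± 0.27, neither of which passed. Close relatives of the Cyp4a family can share hybridisation to 1 probe, which the files do not resolve.

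Drug metabolism genes showed no list-wide direction. Of 39 CAR and PXR targets, 0 were called, with 10 higher and 7 lower at an unadjusted p below 0.05 (median 0.07), and 5 and 5 without VC_1 replicate 3. Cyp3a23-3a1, a PXR-inducible P450, was at 7.61, 7.30 and 7.47 with CDMB and 7.54, 7.48 and 7.47 with CDEB, against 7.18, 7.29 and 7.32 in VC_1. These groups overlapped, and the change of 0.21 ± 0.07 did not pass (adjusted p = 0.117). Cyp2b2, the rat P450 that CAR induces, had 0.21 ± 0.17, and Abcc2, the canalicular conjugate exporter, -0.25 ± 0.06 (adjusted p = 0.0701). Of 11 AhR targets, 0 were called, 2 were higher and 2 lower at that level, and 1 and 2 without VC_1 replicate 3. Cyp1a1, the AhR's most inducible P450, was at 3.73, 3.71 and 3.54 with CDMB and 3.73, 3.59 and 3.50 with CDEB, against 3.40, 3.08 and 1.23 in VC_1. Its change of 1.06 ± 0.39 became 0.39 without VC_1 replicate 3, and Cyp1a2 had 0.19, and -0.04 without that array.

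Oxidative and heat stress lists had medians near that of all genes. Of 32 NRF2 targets, 0 were called, with 5 higher and 3 lower at an unadjusted p below 0.05 (median 0.02), and 6 and 4 without VC_1 replicate 3 (median 0.01). Nqo1, a quinone reductase, had -0.07 ± 0.09, Hmox1, the haem-degrading enzyme, 0.63 ± 0.38 (-0.01 without VC_1 replicate 3) and Gclc, the rate-limiting subunit of glutathione synthesis, 0.47 ± 0.18 (0.16 without). Of 25 heat shock chaperones, 0 were called, 3 were higher and 4 lower (median 0.02), and 3 and 2 without VC_1 replicate 3 (median 0.03). The small chaperone gene Hspb1 had 0.53 ± 0.14 (adjusted p = 0.079).

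Chaperones and folding enzymes of the endoplasmic reticulum had 1 called member of 34, Txndc5, and 15 higher and 0 lower at an unadjusted p below 0.05. Txndc5 was at 2.59, 2.39 and 2.51 with CDMB and 2.48, 2.49 and 2.49 with CDEB, against 2.16, 2.11 and 2.05 in VC_1. The median of the list was 0.21, but 0.06 without VC_1 replicate 3, when 8 were higher and 1 lower. Hsp90b1, the chaperone GRP94, was at 5.84, 5.80 and 5.76 with CDMB and 5.70, 5.72 and 5.63 with CDEB, against 5.59, 5.47 and 4.84 in VC_1, where replicate 3 was the lowest. Its change was 0.44 ± 0.14 (adjusted p = 0.114) and 0.21 without VC_1 replicate 3. Hspa5, the master chaperone BiP, had 0.17 ± 0.09 (adjusted p = 0.254) and 0.06 without.

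The endoplasmic reticulum stress response element, the letters CCAAT and CCACG with 9 bases of any kind between them, searched on both strands, was looked for in RefSeq promoter windows (assembly GRCr8, 250 bases before to 50 after the start). It stood in 9 of the 29 list members with a window (31%) and in 22 of all 33469 windows (0.0657%). These shares describe the list and use no array values, so they do not bear on the response to CDMB or CDEB. The 9 were Calr, Canx, Creld2, Derl3, Dnajc3, Ero1b, Hsp90b1, Hspa5 and Xbp1, and none of them was called. Windows of 2 genes with the element and of the called gene Txndc5, without it, are shown with matches in capitals on the strand of the gene.
Hsp90b1, chr7:23012244-23012543, - strand: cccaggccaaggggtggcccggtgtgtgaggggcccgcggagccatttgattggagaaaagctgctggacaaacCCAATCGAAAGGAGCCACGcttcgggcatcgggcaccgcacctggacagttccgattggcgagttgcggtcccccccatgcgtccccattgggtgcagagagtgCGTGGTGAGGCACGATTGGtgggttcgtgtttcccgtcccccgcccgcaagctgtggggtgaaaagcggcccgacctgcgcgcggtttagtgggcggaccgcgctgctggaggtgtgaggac
Hspa5, chr3:38452766-38453065, + strand: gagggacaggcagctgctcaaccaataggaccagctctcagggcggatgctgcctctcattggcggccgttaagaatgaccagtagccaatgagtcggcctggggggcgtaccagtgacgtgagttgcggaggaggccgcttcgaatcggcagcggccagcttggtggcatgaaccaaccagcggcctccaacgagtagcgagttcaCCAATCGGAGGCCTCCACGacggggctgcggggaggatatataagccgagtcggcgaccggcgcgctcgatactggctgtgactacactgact
Txndc5, chr17:26495217-26495516, + strand: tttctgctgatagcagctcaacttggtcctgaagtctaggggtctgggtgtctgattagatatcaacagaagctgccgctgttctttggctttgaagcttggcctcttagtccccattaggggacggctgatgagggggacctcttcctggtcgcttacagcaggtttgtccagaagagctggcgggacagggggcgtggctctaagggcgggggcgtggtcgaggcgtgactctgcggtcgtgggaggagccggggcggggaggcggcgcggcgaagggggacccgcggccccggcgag
Hsp90b1 held 2 matches, the first starting 176 bases before the start site, Hspa5 held 1 starting 43 bases before it, and Txndc5 held no match to the whole element. Among 74 PPARalpha targets tested, 60, Cyp4a1 not among them, had a window, and 0 held 2 copies of AGGTCA with 1 base between them on either strand, which 18 of all windows (0.0538%) did. With letters this rare, 0 of 60 was likely for any list and decides nothing.

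The integrated stress response list, which ATF4 drives, had 0 called of 37 (5 higher and 2 lower at an unadjusted p below 0.05), with a median of 0.09, and 1 higher and 3 lower with a median of -0.02 without VC_1 replicate 3. Atf3, a stress-induced transcription factor, was at 3.66, 3.77 and 3.78 with CDMB and 3.72, 3.78 and 3.79 with CDEB, against 3.89, 4.05 and 4.02 in VC_1. The groups did not overlap, and the change of -0.24 ± 0.05 had an adjusted p of 0.0673 and was -0.22 without VC_1 replicate 3.

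Targets of p53, the DNA damage regulator, had 1 called member of 26, Phlda3, which restrains the kinase Akt. Phlda3 was at -0.54, -0.44 and -0.39 with CDMB and -0.58, -0.49 and -0.63 with CDEB, against -0.19, -0.02 and 0.19 in VC_1, so the groups did not overlap (adjusted p = 0.048 in limma). In the list 10 members were lower and 2 higher at an unadjusted p below 0.05, with a median of -0.14, and 7 lower and 1 higher without VC_1 replicate 3 (median -0.08). The exonuclease gene Aen (-0.24 ± 0.05), the cell death gene Bax (-0.41 ± 0.10) and Pidd1 (-0.26 ± 0.07) were among the lower, with adjusted p of 0.064, 0.0701 and 0.0773. Cdkn1a, the p21 inhibitor of cell cycling, lay the other way (0.58 ± 0.15, adjusted p = 0.0815), and Mdm2, the p53 ubiquitin ligase, had -0.14 ± 0.05.

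Glycolysis and hypoxia genes had 1 called of 39, Pfkl, with 20 higher and 2 lower at an unadjusted p below 0.05 and a median of 0.25. Leaving out VC_1 replicate 3, 11 were higher and 1 lower (median 0.13). Gapdh had 0.27 ± 0.06 (adjusted p = 0.0639) and Gpi, which interconverts hexose phosphates, 0.43 ± 0.12. On glucose synthesis, 0 of 21 were called (3 higher and 1 lower at that level, with or without VC_1 replicate 3), with G6pc1, the last step of glucose release, at 1.03 ± 0.25 (adjusted p = 0.073) and 0.61 without VC_1 replicate 3. Of 42 genes of the urea cycle and amino acid breakdown 0 were called, with 15 higher and 1 lower and a median of 0.18, and 10 higher and 2 lower without VC_1 replicate 3 (median 0.08).

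Lipid synthesis showed no common direction. Fatty acid and triglyceride synthesis had 0 called of 29 (4 higher and 4 lower at an unadjusted p below 0.05, median -0.01), with 1 and 3 without VC_1 replicate 3 (median -0.02). Cholesterol synthesis had Hsd17b7 called of 26 (2 higher and 2 lower, median -0.03), with 3 and 2 without VC_1 replicate 3 (median 0.00397). Hsd17b7 was at 0.75, 0.58 and 0.67 with CDMB and 0.52, 0.61 and 0.44 with CDEB, against 0.17, 0.15 and -0.07 in VC_1. Of 24 bile acid genes 0 were called (7 higher and 3 lower, and 5 and 4 without VC_1 replicate 3). Cyp7a1, the rate-limiting enzyme of bile acid synthesis, was at -0.88, -0.88 and -0.78 with CDMB and -0.31, -0.28 and -0.39 with CDEB, against -1.09, -1.36 and -3.18 in VC_1. All treated arrays lay above all control arrays, and the change of 1.29 ± 0.41 (adjusted p = 0.107) was 0.64 without VC_1 replicate 3, the lowest array.

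Plasma protein and hepatocyte identity genes had 0 called of 47, with 20 higher and 1 lower at an unadjusted p below 0.05. Their median was 0.22, and 0.06 without VC_1 replicate 3, when 9 were higher and 1 lower. Alb, the serum albumin gene, had 0.19 ± 0.09 and Hnf4a, a master regulator of hepatocyte identity, 0.51 ± 0.16 (0.24 without). The summed level of the 8 hepatocyte markers was 1564 to 1727 on the treated arrays, against 1234 to 1625 on the VC_1 arrays. Steroid, thyroid hormone, sex-biased and clock genes had 0 called of 39 (15 higher and 2 lower), with a median of 0.24. Without VC_1 replicate 3, 9 were higher and 1 lower (median 0.09). With all 9 arrays, the male-specific P450 gene Cyp2c11 had -0.49 ± 0.12 (adjusted p = 0.0701 in limma).

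Cell cycle genes had the most negative median of the 27 lists. Of 47 tested, 0 were called, and 26 were lower and 4 higher at an unadjusted p below 0.05, with a median of -0.38, and of -0.13 without VC_1 replicate 3, when 16 were lower and 5 higher. On VC_1 replicate 3 the median of the list was 0.49 above the VC_1 mean. Rrm2, a subunit of ribonucleotide reductase, had -1.56 ± 0.41 (adjusted p = 0.0802) and -0.93 without that array, and Ccnb1, mitotic cyclin B, had -1.33 ± 0.38 and -0.81. Aurka, a mitotic kinase, lay the other way (0.39 ± 0.08, adjusted p = 0.0642). In RNA from whole cultures, fewer cycling cells and less of these RNAs per cell cannot be told apart. The letters TTTGAA of the CHR promoter element, searched on both strands, stood in 15 of 36 members with a window (41.7%) and in 18.3% of all windows. These shares too describe the list and not the response.

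Chemokine and cytokine genes had 0 called of 25, with 6 lower and 2 higher at an unadjusted p below 0.05 and a median of 0.04, and 3 lower and 1 higher without VC_1 replicate 3. The neutrophil chemokine gene Cxcl1 was at 0.29, 0.02 and 0.13 with CDMB and -0.04, 0.29 and 0.29 with CDEB, against 0.60, 0.73 and 2.50 in VC_1. VC_1 replicate 3 was far above the other arrays, and the change of -1.11 ± 0.36 (adjusted p = 0.112) was -0.50 without it. Cxcl12, a stromal chemokine, had 0.48 ± 0.12 (adjusted p = 0.073).

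The remaining lists had 0 called members, apart from Itga5 among 41 actin and matrix genes (4 higher and 6 lower at an unadjusted p below 0.05, median -0.09). At that level 5 of 30 acute phase and complement genes were higher and 1 lower, 3 of 11 LXR targets higher and 1 lower, 7 of 48 respiratory chain genes higher and 0 lower, 3 of 35 proteasome genes higher and 0 lower, 2 of 39 lysosome and autophagy genes higher and 6 lower, and 7 of 38 conjugating enzymes higher and 0 lower. Without VC_1 replicate 3, 4 actin and matrix genes were higher and 2 lower (median -0.00463), 4 acute phase genes were higher and 0 lower, and 1 LXR target was higher and 0 lower. Without that array 7 respiratory chain genes were higher and 0 lower, 5 proteasome genes higher and 0 lower, 0 lysosome genes higher and 5 lower, and 2 conjugating enzymes higher and 0 lower.

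**Figure D3:**
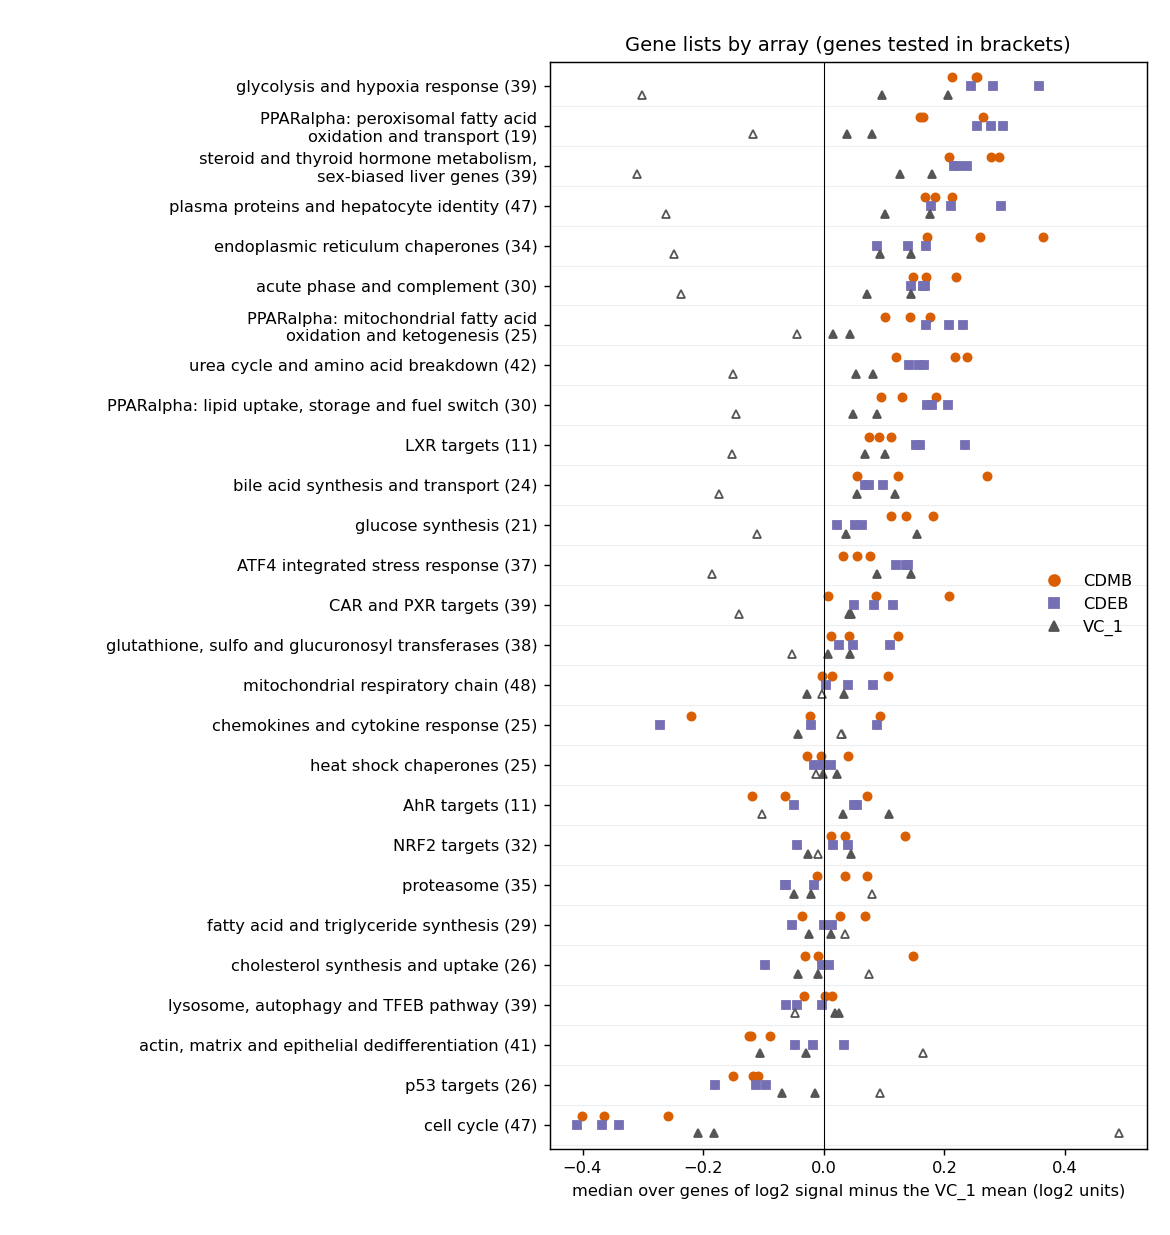
Median over the genes of each list (rows, number of genes tested in brackets) of the log2 signal minus the VC_1 mean (horizontal axis, log2 units), for every CDMB (circles), CDEB (squares) and VC_1 array (triangles, replicate 3 hollow). VC_1 replicate 3 lies far from the other 2 VC_1 arrays in several lists, most in the cell cycle list at 0.49. In that list the CDMB and CDEB arrays lie at -0.41 to -0.26. In the chemokine and cytokine list they spread from -0.27 to 0.09. The VC_1 arrays, fewer in number and centred on their own mean, lay at -0.04 to 0.03, so the 2 ranges are not compared.

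CDEB and CDMB were the 1 pair of compounds at a matched dose and time inside the joint group. Over all genes the median absolute difference between them was 0.0751 log2 units, and the 95% confidence interval of the difference had a median half-width of 0.226. For 95.8% of genes that interval lay within 1 log2 unit of 0. In limma 1 gene of 20801 (0.00481%) differed at an adjusted p below 0.05, and 1494 (7.18%) at an unadjusted p below 0.05. The 3 CDEB arrays lay on one side of the 3 CDMB arrays for 4127 genes (19.8%). A gene that missed the threshold is not shown to respond alike to both.

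That gene was Cyp4a1, the fatty acid omega-hydroxylase. It was at 3.61, 3.62 and 3.65 with CDEB, against 3.01, 2.92 and 3.02 with CDMB, and at 2.82, 2.81 and 2.89 in VC_1. The CDEB arrays lay apart from all others, and CDEB exceeded CDMB by 0.64 ± 0.06 (1.56-fold, 95% confidence interval 0.52 to 0.77, adjusted p = 0.0453 in limma). Against VC_1 the fitted change was 0.79 with CDEB and 0.14 with CDMB. The adjusted p was above 0.05 when any 1 CDEB or CDMB array was left out, while the difference stayed between 0.61 and 0.66.

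The spread in that fit includes VC_1, and without VC_1 replicate 3, a choice made after the data were seen, 42 genes differed between CDEB and CDMB, 22 higher and 20 lower with CDEB. A fit of the 6 CDEB and CDMB arrays alone gave 0 (2727 at an unadjusted p below 0.05), as did the replicate block (1640). Of the 22 with a plain symbol, 17 were higher with CDEB. The CDEB minus CDMB difference itself does not use the VC_1 arrays. Among the 42 were Cyp4a1, Ehhadh, the bifunctional enzyme of peroxisomal oxidation, and Scd, the stearoyl-CoA desaturase. Ehhadh was at 0.12, 0.19 and 0.25 with CDEB, against -0.34, -0.51 and -0.41 with CDMB, and at -0.28, -0.27 and -0.38 in VC_1. With CDEB it lay above every other array, by 0.61 ± 0.07 over CDMB (adjusted p = 0.115 with all arrays, 0.0319 without VC_1 replicate 3, in limma).

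Members of the PPARalpha lists with an unadjusted p below 0.05 for this difference were 4 of 19 peroxisomal, 4 of 25 mitochondrial and 6 of 30 lipid uptake genes higher with CDEB, and 0, 0 and 1 lower. Over all genes 3.63% were higher and 3.55% lower at that level. Besides Cyp4a1 and Ehhadh these included Ucp2, a mitochondrial carrier (0.50), Cyp4a3 (0.39), the thiolase genes Acaa2 (0.29), Acaa1a (0.22) and Acaa1b (0.22), and Angptl4, an inhibitor of lipoprotein lipase (0.25). The median difference was 0.09 in the peroxisomal, 0.05 in the mitochondrial and 0.09 in the lipid uptake list, and 0.00 over all genes. Such a tilt was not confined to PPARalpha targets. The glycolysis and hypoxia list had a median difference of 0.08, with 4 of 39 higher and 0 lower with CDEB at that level. The median difference was -0.147 in the cholesterol synthesis list and -0.077 in the proteasome list, against -0.055 for endoplasmic reticulum folding. Scd was at 6.98, 6.95 and 6.91 with CDEB, against 6.60, 6.58 and 6.62 with CDMB.

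Genes of endoplasmic reticulum folding lay the other way. Of 34 tested, 0 were higher and 5 lower with CDEB than with CDMB at an unadjusted p below 0.05, namely Derl3 (-0.91), Creld2 (-0.49), Pdia4 (-0.25), Sdf2l1 (-0.23) and Calr (-0.17). Derl3, part of the export of misfolded proteins, was at 2.02, 2.12 and 2.07 with CDEB, against 3.01, 3.03 and 2.91 with CDMB, and at 2.91, 2.70 and 1.13 in VC_1. CDEB and CDMB did not overlap, and VC_1 had values above and below those of CDEB. Derl3 and Creld2 were among the 42 genes, with adjusted p of 0.0232 and 0.0465 in limma without VC_1 replicate 3, against 0.695 and 0.599 with it. Ddit3, the CHOP gene of the stress response, had a difference of -0.53 ± 0.16 (95% confidence interval -0.90 to -0.17), and Hspb1 one of -0.39 ± 0.10, neither of which passed with all arrays (adjusted p = 0.49 and 0.415).

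**Figure D4:**
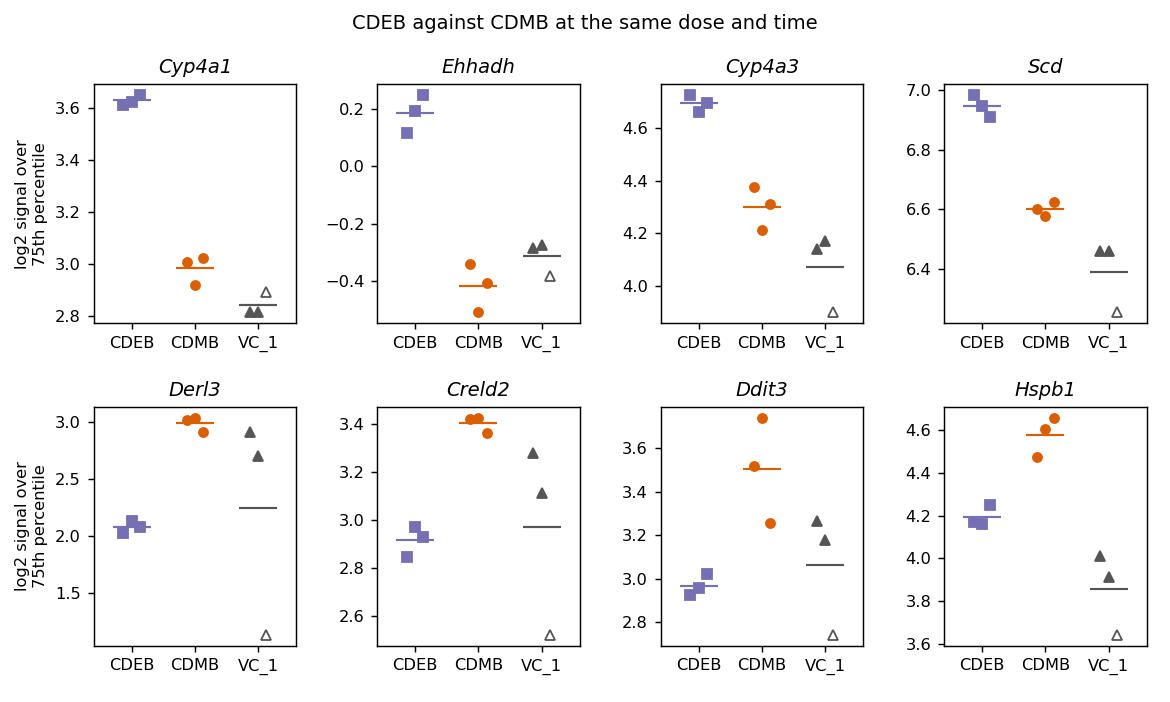
Log2 signal relative to the 75th percentile of the array (vertical axes, each with its own range) of 8 genes in the CDEB (squares), CDMB (circles) and VC_1 arrays (triangles, replicate 3 hollow), with group means as lines. The 3 CDEB arrays lie above the 3 CDMB arrays for Cyp4a1, Ehhadh, Cyp4a3 and Scd and below them for Derl3, Creld2, Ddit3 and Hspb1.

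Actin and matrix genes were higher with CDEB than with CDMB for 9 of 41 and lower for 0 at an unadjusted p below 0.05, with a median difference of 0.12. Tagln, a smooth muscle actin-binding protein, was at 3.16, 3.13 and 3.25 with CDEB, against 2.00, 2.51 and 2.43 with CDMB, a difference of 0.87 ± 0.18 (adjusted p = 0.331). Timp2, a metalloproteinase inhibitor, differed by 0.69 ± 0.15 and was among the 42. Of the 5 stellate cell markers tested, Col3a1 (0.45), Acta2 (0.38), Pdgfrb (0.33) and Reln (0.27) were higher with CDEB at an unadjusted p below 0.05, and Des had a difference of 0.26. Their summed level was 0.775 to 0.859 on the CDEB arrays and 0.563 to 0.690 on the CDMB arrays, against 0.652 to 0.786 on the VC_1 arrays, while Lrat, a defining stellate marker, was above background on none. Their part in the actin and matrix result was not tested. Nefl (0.74 ± 0.18) and the collagen cross-linking enzyme gene Loxl2 (0.78 ± 0.13) were also among the 42.

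Setting CDMB and CDEB together against DDMB, 1958 of 20801 genes (9.41%) differed at an adjusted p below 0.05 in limma, 882 higher (4.24%) and 1076 lower (5.17%) with CDMB and CDEB. Slide and compound coincide here as well, and the count fell to 155 without DDMB replicate 3 and to 174 without DDMB replicate 2, against 3860 without DDMB replicate 1. The DDMB arrays were not alike. DDMB replicate 1 lay 0.487 log2 units (root mean square per gene) from DDMB replicate 2, but 0.264 from CDMB replicate 1. DDMB replicates 2 and 3 lay 0.300 and 0.406 from VC_1 replicate 3, the control array that stood apart. The part of this in the count was not tested. The count was 1164 without CDMB replicate 2, 1027 without CDMB replicate 3, 1049, 717 and 700 without CDEB replicates 1, 2 and 3, and 3571 without VC_1 replicate 3.

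Among genes lower with CDMB and CDEB, Cyp4b1, a P450 that activates protoxicants, differed most. It was at -4.06, -4.20 and -3.93 with CDMB and -4.03, -4.13 and -4.08 with CDEB, against -2.79, -1.43 and -1.31 with DDMB, and it averaged -4.12 ± 0.33 in VC_1 (SD, n = 3). The difference from DDMB was -2.23 ± 0.27 (adjusted p = 0.0036 in limma), and the change from VC_1 was 0.05. Pck1, which commits carbon to glucose synthesis, was also lower than with DDMB (adjusted p = 0.014 in limma) and had a change of 0.16 from VC_1. The others were Serpine2 (-1.46, above background on 2 of 6 CDMB and CDEB arrays, and -0.21 with normexp), the peptide transporter gene Slc15a1 (-1.11), Mapk12 (-1.07), Ptprz1 (-1.05), the defensin gene Defb1 (-1.01) and thrombomodulin, Thbd (-0.91).

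Among genes higher with CDMB and CDEB were 3 P450s. Cyp7a1 exceeded DDMB by 2.02 ± 0.47, with -0.59 ± 0.29 for CDMB and CDEB (SD, n = 6) and -2.60 ± 0.98 for DDMB (SD, n = 3). Cyp2b2 was at 5.32, 5.09 and 5.49 with CDMB and 5.31, 5.31 and 5.41 with CDEB, against 4.02, 3.25 and 4.15 with DDMB, and averaged 5.11 ± 0.47 in VC_1. The groups did not overlap, and the difference was 1.51 ± 0.22 (adjusted p = 0.00673 in limma). Its relative Cyp2b21 differed by 1.41 ± 0.26, and the 2 sequences may share hybridisation. Pklr, liver pyruvate kinase (1.98 ± 0.43), the fructose transporter gene Slc2a5 (1.87), Aspdh (1.56), Nat8 (1.43) and C7h12orf75 (1.42, above background on 1 of 3 DDMB arrays, and 0.58 with normexp) completed the 8 largest.

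**Figure D5:**
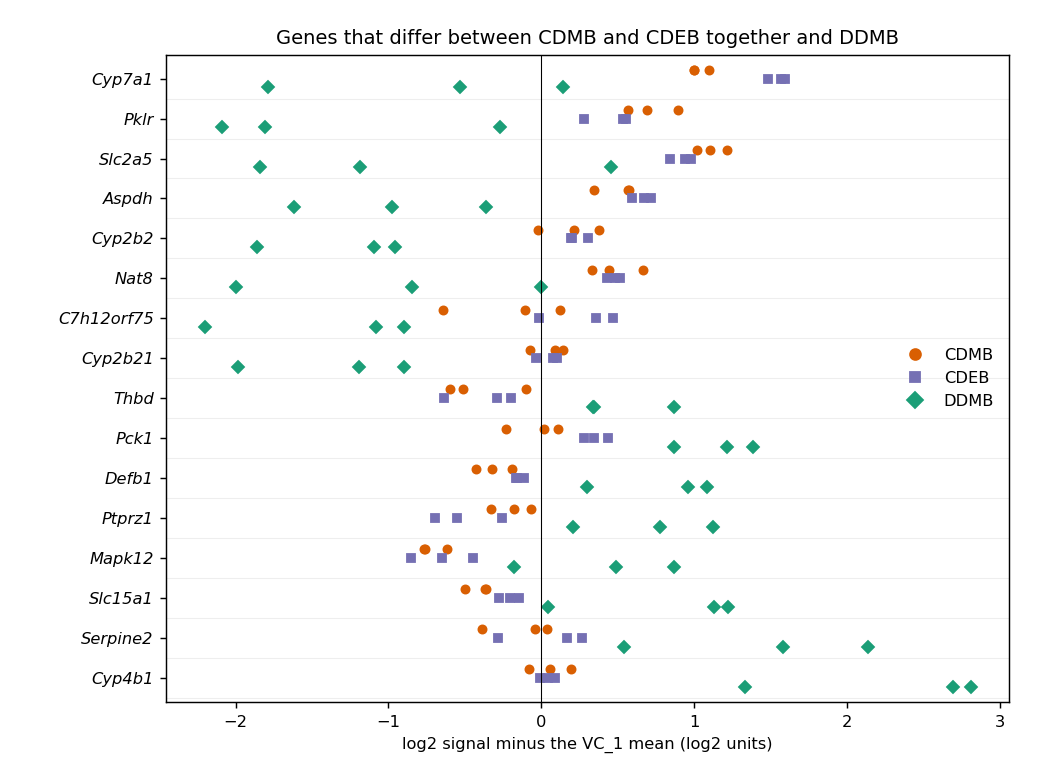
Log2 signal of the 8 largest differences each way between CDMB and CDEB together and DDMB, as the difference from the VC_1 mean of each gene (horizontal axis, log2 units), for every CDMB (circles), CDEB (squares) and DDMB array (diamonds). For each gene the 6 CDMB and CDEB arrays lie on one side of the 3 DDMB arrays.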

How the data were processed

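RNA was measured on 1-colour Agilent rat arrays. Per the file headers, spot intensity was extracted with Feature Extraction 10.7.1.1, which corrected the background. The authors also deposited a table of normalized signal, which served as an alternative. For all probes with a value above 1, it equals the scan value over 1 constant per array to within 1%. These constants lay close to the 75th percentiles used here, for example 478.97 against 482.28 for CDMB replicate 2. From the deposited intensity values, log2 of the processed signal minus the 75th percentile of the array was computed, without control spots and outlier flags. Probes had to pass the scanner's background test on all 6 CDMB and CDEB arrays or on all 3 VC_1 arrays, and 1 probe was kept per gene, which left 20801 genes. These served every comparison, so genes above background only with DDMB or in VC_2 were not tested. Of the probes, 21109 were matched to RefSeq genes and 24489 kept the name in the file, and no probe was matched to Cyp2b1.

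Groups were compared with limma 3.58.1 in R 4.3.3 (lmFit, eBayes, Benjamini-Hochberg adjustment over all genes, threshold 0.05). CDMB and CDEB were fitted as 1 group of 6 against VC_1, CDEB against CDMB with 3 group means over these 9 arrays, and against DDMB over 12 arrays. VC_2 was compared with VC_1 in a fit of all 18 arrays. The number of arrays limits the precision. Named were the 15 largest changes each way with a plain symbol and no overlap between groups, the 8 largest each way against DDMB, the members with the lowest p in each list (at most 4), and a fixed set. Other genes named, among them those that differ between CDEB and CDMB without VC_1 replicate 3, were chosen after their values were seen. Some genes that the rule names are not reported here. The compounds, lists and members were chosen with earlier results of these data known. The fits were tested on simulated data. Promoter windows are from RefSeq, assembly GRCr8.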

Additional observations from a re-analysis of the deposited data

Results flagged for a closer look

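In 8 of 172 named genes checked, 1 of the 6 CDMB and CDEB arrays stood far from the other 5, and chance flags about 1 in 20 such groups. CDEB replicate 1 was the lone array for Plin5 at -2.42, Agpat2 at 1.58 and Mdm2 at 1.72. CDMB replicate 1 was the lone array for Mybl2 at -4.80, Rrm2 at -1.37, Ndufs1 at 4.43 and Nqo1 at 1.44. CDMB replicate 2 was the lone array for P4hb at 6.38. All are log2 signal relative to the 75th percentile of the array.

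The response of Cyp4a1 differed between the compounds, with CDEB above CDMB by 0.64 on the log2 scale (adjusted p = 0.0453 in limma).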

How the results depend on the processing

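For CDMB and CDEB against VC_1, the 108 genes became 0 with normexp background correction, 211 with quantile normalization (58.3% of them higher, against 71.3%), 3 with no filter on dim probes, 200 with probes above background on all arrays, 39 in a fit of all 18 arrays, 69 with 3 group means, 1 at an adjusted p below 0.01 and 31 at 1.5-fold or more. With slide as a random block it was 0, and 176 genes had an unadjusted p below 0.05. The counts at an unadjusted p below 0.05 were 4655 with normexp and 5554 with the replicate block. Leaving out 1 array gave 0 to 1385 genes. For CDEB against CDMB, the 1 gene became 0 with normexp (965 at an unadjusted p below 0.05), no filter (1791), every probe on its own (1790), all 18 arrays (963), only the 6 arrays compared (2727) and each CDMB or CDEB array left out (1019 to 1376). It became 42 without VC_1 replicate 3, chosen after seeing the data, so that leaving out 1 array gave 0 to 42 genes. For CDMB and CDEB against DDMB, the 1958 genes became 1010 in a fit of all 18 arrays and 0 with slide as a random block (571 at an unadjusted p below 0.05), with 155 to 3860 when 1 array was left out. Without VC_1 replicate 3, also chosen after seeing the data, it was 3571. The share of these genes that was higher was 50.8% with quantile normalization, against 882 of 1958. For VC_2 against VC_1 it was 43.5%, against 53.2%. The cause of these shifts was not tested.

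Fcgr2al1 changed sign with normexp, to 0.0705 on the log2 scale. Normexp used the median signal of the spot, since the scan files used here hold no mean signal column. An offset of 50 was added to the corrected signal. The replicate block gave 0 genes for CDMB and CDEB against VC_1, 0 (1640 at an unadjusted p below 0.05) for CDEB against CDMB and 1915 against DDMB. Samples with the same number deviated together with correlations of -0.224 to 0.220, so the numbers were not taken to pair the samples. Signal over background limits dim genes.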
